A study of Nicotiana tabacum with 16 samples.

Results

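Roots of tobacco plants with recessive alleles at the Nic1 and Nic2 loci (nic1 nic2, in the K326 background) were compared with roots of the cultivar K326. The comparison used 7 of the 16 libraries of the series, chosen by genotype: 3 of nic1 nic2 and 4 of K326. The lines are described as nearly isogenic. From 3 to 5 plants of a genotype were grown. All plants stood in soil-filled pots with their base in water, in a greenhouse, and roots were taken 18 h after topping, the removal of the flowering shoot top. The other 9 libraries, 4 of nic1 nic2 myc2a and 5 of myc2a, served for the estimate of the spread and for tests of where nic1 nic2 differed from these lines. The question, per the design text of the series, was how genotypes at these loci differ in root expression. How the lines were bred, how many lines stand for a genotype and whether a library was a separate plant are not stated in the labels, so p-values describe only how far these samples differ, which may be partly technical. A recessive locus also cannot be told apart from any other stretch of the genome in which the nic1 nic2 line differs from K326.

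Nicotine, the main alkaloid of tobacco, is made in the roots from the polyamine putrescine and from nicotinic acid, and is carried to the leaves in the xylem. Topping acts through jasmonate signalling, in which MYC2 proteins and a group of ERF transcription factors switch on the genes of the pathway. Nic1 and Nic2 control the alkaloid level of the plant, clusters of such ERF genes lie at these loci, and recessive alleles there lower it. The deposited table names its gene models by an ID group and a serial number only, and none of its identifiers matched the table of tobacco gene symbols. Genes of nicotine synthesis, the ERF genes and root markers were therefore not analysed here by name, the targeted loci give no check of the labels, and no role is given for any gene model below. Serial numbers are used as an order in the table, not as positions in the genome.

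Of 63697 gene models, 43009 passed the filter on low counts and were tested, with edgeR's quasi-likelihood test fitted to all 16 libraries. Total counts were 32167776 to 34939545 in the nic1 nic2 libraries and 36087568 to 40858135 in K326, except K326 replicate 2 with 71836276. Between 41283 and 44504 gene models had at least 1 count in a nic1 nic2 library, against 44649 to 45675 in a K326 library. The median standard deviation of a gene model among replicates was 0.28 on the log2 scale in nic1 nic2 and 0.19 in K326, over 34185 gene models of at least 2 CPM. Among pairs of nic1 nic2 libraries it was 0.15 for replicates 1 and 2, 0.26 without replicate 1 and 0.28 without replicate 2. Replicate 3 thus widened the spread of its group.

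In nic1 nic2 roots, 395 gene models differed from K326 at an edgeR adjusted p of at most 0.05, which is 0.918% of those tested. Of these, 146 (0.339%) were higher and 249 (0.579%) lower. Scaled by total counts alone instead of TMM, 269 were higher and 204 lower. In ID group 18, 111 of the falls lay in the stretch from Ntab18g018660-1.1 to Ntab18g022210-1.1, 8 neighbouring gene models of ID group 24 had almost no counts left, and a group of abundant transcripts elsewhere was reduced by up to 6.64 on the log2 scale (Ntab08g023550-1.1). The rises were mostly smaller than these falls, with a median log2 fold change of 0.91. They were close in size to the 93 falls outside the stretch that were neither abundant nor nearly absent (median -0.93). Because whole roots were sequenced, fewer cells of a type and less RNA per cell cannot be told apart in any of these values.

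**Figure D1:**
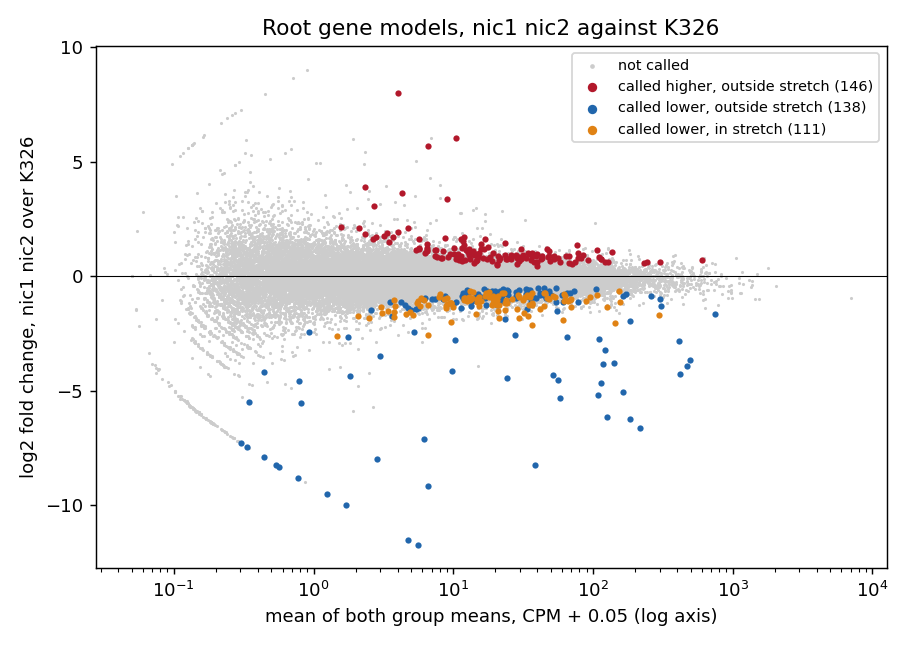
Each point is 1 tested gene model, with the mean level of nic1 nic2 and K326 in CPM on the log x axis and the fitted log2 fold change of nic1 nic2 over K326 on the y axis. Called rises (146) lie mostly close to 1, called falls of the ID group 18 stretch (111) form a band near -1, and the other called falls (138) reach -11.7; values below about -8 belong to gene models with few or no counts in nic1 nic2.

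The stretch of ID group 18 held 356 gene models of the table, of which 254 were tested. It was found in these data as a region of low values in nic1 nic2, so its values are a description. In the stretch 111 gene models, or 43.7%, were called lower and 0 higher, against 0.664% called in either direction outside it. No overlap between the 3 nic1 nic2 and the 4 K326 libraries, with nic1 nic2 lower, was seen for 170 of the 254 (66.9%), and with nic1 nic2 higher for 0, against 9.04% and 7.91% outside. The median level over the 254 gene models was 55.2, 55.2 and 54.5% of the K326 mean in nic1 nic2 replicates 1, 2 and 3, on the log2(CPM + 0.5) scale. Every nic1 nic2 library was thus at nearly the same reduced level, and single K326 libraries lay between 98.7 and 102%. The summed level of the stretch was 3131, 3085 and 2866 CPM in nic1 nic2, against 6225, 6479, 6040 and 6303 CPM in K326 replicates 1 to 4.

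The median fall was of similar size at levels above 1 CPM. Among tested gene models with 1 to 10 CPM over all 16 libraries the median fold change put nic1 nic2 at 51.2% of K326, with 10 to 30 CPM at 52.0%, with 30 to 100 CPM at 50.1% and above 100 CPM at 47.6%. The share called followed the level, with 23.7% of 93, 60.8% of 74, 87.8% of 41 and 80% of 10 gene models. Below 1 CPM, 0 of 36 gene models were called, at a median log2 fold change of -0.38 and a standard deviation of 1.39 between gene models. Of the 125 gene models with at least 10 CPM, 32 had a log2 fold change between -0.75 and -0.25, 2 were above -0.25 and the others were below -0.75. The 2 above -0.25, chosen after their values were seen, were Ntab18g019460-1.1, with 9.77 ± 5.56 CPM in nic1 nic2 (SD, n = 3) and 11.3 ± 1.39 CPM in K326 (n = 4), and Ntab18g021170-1.1, with 12.3 ± 4.34 and 14.1 ± 2.37 CPM.

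Single gene models at the edges are given as a description, since the stretch was found in these data. Ntab18g018610-1.1, Ntab18g018580-1.1 and Ntab18g018570-1.1, the 3 tested gene models before it, had log2 fold changes of 0.63, -0.04 and 0.26, and the first 3 inside, Ntab18g018660-1.1, Ntab18g018670-1.1 and Ntab18g018690-1.1, had -0.77, -0.98 and -1.03. The last 3 inside, Ntab18g022190-1.1, Ntab18g022200-1.1 and Ntab18g022210-1.1, had -0.41, -1.38 and -1.30, and the 3 after it, Ntab18g022230-1.1, Ntab18g022240-1.1 and Ntab18g022250-1.1, had 0.50, 0.26 and 0.45. Of the 6 inside, Ntab18g018690-1.1 and Ntab18g022210-1.1 were called. The 50 tested gene models before the stretch had median levels of 94.2, 94.2 and 99.3% of K326 in the nic1 nic2 libraries and the 50 after it 101, 91.4 and 108%, with 0 gene models called on either side.

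**Figure D2:**
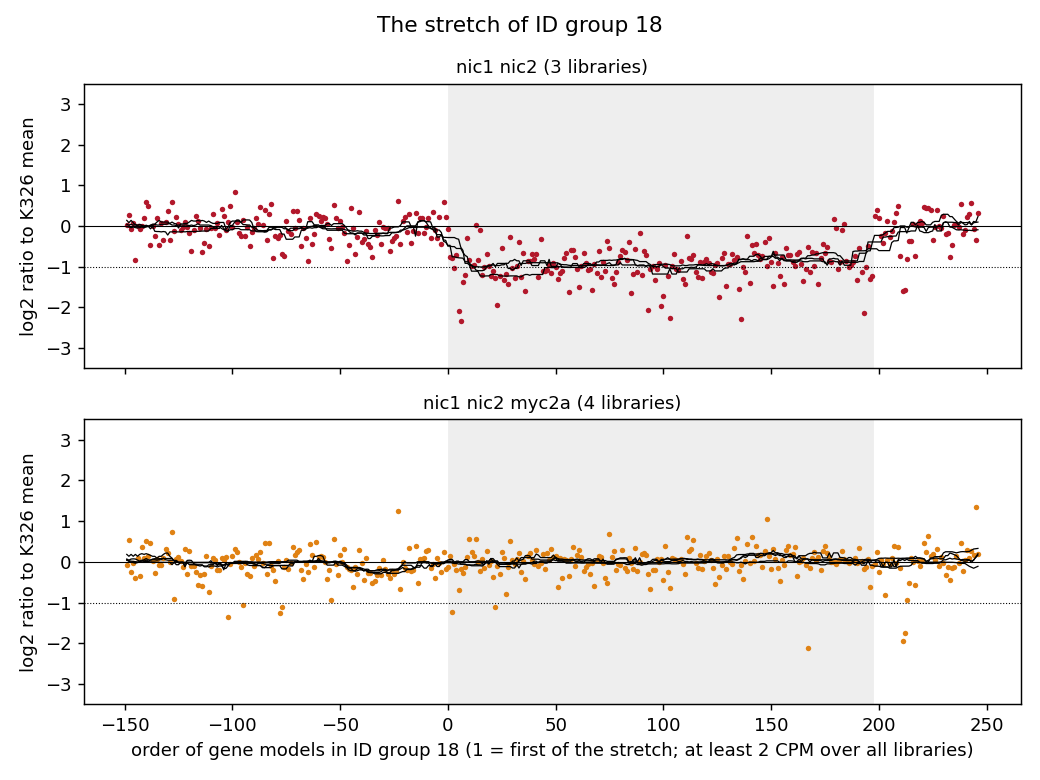
Gene models of ID group 18 with at least 2 CPM over all libraries are shown in table order, counted from the first of the stretch (grey), with the log2 ratio of the group mean to the K326 mean on the y axis; black lines are running medians over 25 gene models for each library and the dotted line marks -1. The 3 nic1 nic2 libraries (top) run near -1 inside the stretch and near 0 outside, while the 4 nic1 nic2 myc2a libraries (bottom) stay near 0 throughout.

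Among the called falls of the stretch, 3 were named for their high CPM. Ntab18g020970-1.1 had 164, 170 and 87.2 CPM in nic1 nic2 replicates 1 to 3, against 438, 501, 429 and 447 CPM in K326. The groups did not overlap, and the log2 fold change was -1.69 ± 0.21 (SE; edgeR adjusted p = 0.000439). Ntab18g020360-1.1 had 96.6, 116 and 80.2 CPM against 217, 228, 204 and 207 CPM in K326 (log2 fold change -1.13 ± 0.13, edgeR adjusted p = 0.000184). Ntab18g020550-1.1 had 73.4, 77.8 and 18.0 CPM in nic1 nic2, against 270, 280, 179 and 191 CPM in K326 (log2 fold change -2.03 ± 0.43, edgeR adjusted p = 0.0323). The value of nic1 nic2 replicate 3 was far below those of the other replicates, and the call was lost in 7 of 25 alternatives, the one without that library among them (edgeR adjusted p up to 0.183).

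Close to the first edge lay Ntab18g018750-1.1, with 10.9, 16.4 and 13.6 CPM in nic1 nic2 and 59.6, 73.5, 48.6 and 57.4 CPM in K326 (log2 fold change -2.13 ± 0.36, edgeR adjusted p = 0.00728). Its neighbour Ntab18g018760-1.1 had 2.78, 1.81 and 1.00 CPM against 7.04, 12.8, 11.0 and 13.9 CPM (-2.59 ± 0.51, edgeR adjusted p = 0.0221). Both groups were apart in these gene models, but the calls of Ntab18g018750-1.1 and Ntab18g018760-1.1 were lost in 2 and 6 of 25 alternatives, each time including the one without nic1 nic2 replicate 3. The largest fall among those of at least 2 CPM in K326, Ntab18g019790-1.1, was of a weakly expressed gene model, with 0.181, 0.781 and 0.229 CPM in nic1 nic2 and 2.16, 3.73, 1.64 and 2.32 CPM in K326, and its call was lost in 13 of 25 alternatives (edgeR adjusted p = 0.0445, up to 0.358).

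The reduced level was not shared by the other genotypes. Over the 254 gene models, the median was 99.8 to 103% of K326 in the 4 nic1 nic2 myc2a libraries and 98.8 to 101% in the 5 myc2a libraries. In the test of nic1 nic2 against nic1 nic2 myc2a, 97 of the 254 (38.2%) were called lower and 0 higher, against 0.18% called in either direction outside the stretch. Against myc2a, 115 (45.3%) were called lower and 0 higher, against 0.786% outside. These comparisons share the nic1 nic2 libraries.

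In ID group 24, counts were nearly missing from nic1 nic2 from Ntab24g014040-1.1 to Ntab24g014150-1.1. Over all 12 gene models of this run the deposited counts added up to 11, 8 and 20 in nic1 nic2 replicates 1 to 3, against 5343, 9964, 3819 and 5009 in K326 replicates 1 to 4, and 8 of the 12 had 0 counts in all nic1 nic2 libraries. Of the 12, 9 were tested and 8 called lower. Those not tested, Ntab24g014080-1.1, Ntab24g014110-1.1 and Ntab24g014120-1.1, had 0 counts in nic1 nic2 but also only 6, 8 and 27 counts in all of K326. Ntab24g014050-1.1 carried most of the counts, with 0.181, 0.223 and 0.343 CPM in nic1 nic2 and 91.6, 91.5, 52.9 and 71.4 CPM in K326 (log2 fold change -8.25 ± 0.48, edgeR adjusted p = 4.48e-08). Ntab24g014130-1.1 had 0.0302, 0 and 0.229 CPM against 12.5, 12.6, 10.5 and 13.3 CPM (-7.09 ± 0.46, edgeR adjusted p = 1.77e-07).

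Ntab24g014150-1.1, with 2 counts in all of nic1 nic2, was at 13.8, 9.97, 13.5 and 14.7 CPM in K326, and Ntab24g014070-1.1, also with 2 counts, at 5.24, 6.32, 5.08 and 5.74 CPM. Ntab24g014140-1.1 and Ntab24g014090-1.1 had 0 counts in nic1 nic2; taking 3 counts per library as the limit, they were at least 109-fold and 127-fold lower than in K326, where they averaged 9.46 ± 0.657 and 11.0 ± 2.06 CPM (SD, n = 4). Every nic1 nic2 library was below every K326 library in the 8 called gene models. The gene models on either side, Ntab24g014030-1.1 with 312, 302 and 232 counts and Ntab24g014160-1.1 with 139, 219 and 89 counts in nic1 nic2, had 393 to 863 and 103 to 213 counts in K326 and were not called (edgeR adjusted p = 0.159 and 0.48). All 8 called members were also called lower than in nic1 nic2 myc2a, where the 12 gene models added up to 3100 to 4395 counts a library, and lower than in myc2a.

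**Figure D3:**
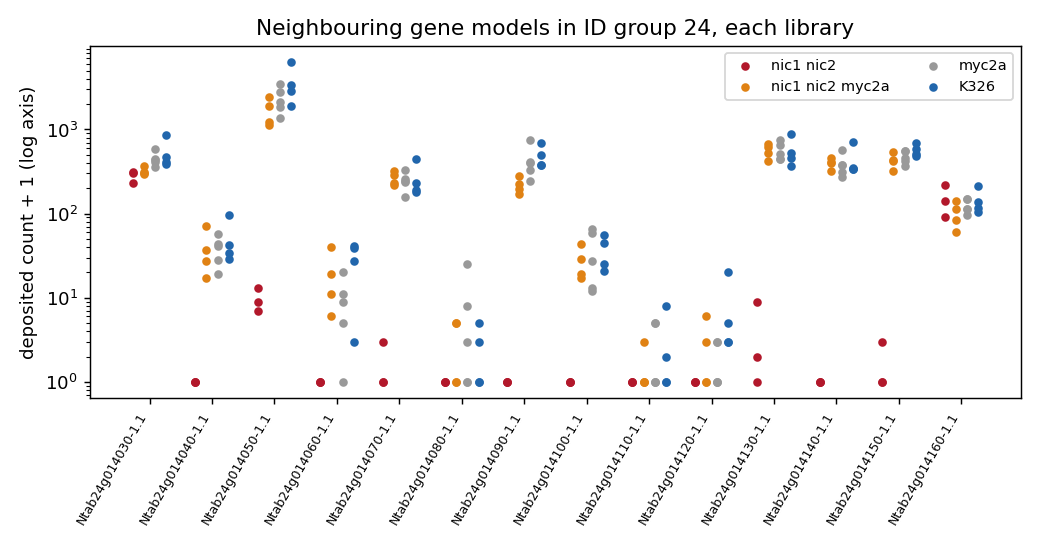
The deposited count plus 1 is shown on a log axis for each library and each of 14 neighbouring gene models of ID group 24, in table order, with nic1 nic2 leftmost and K326 rightmost of the 4 genotypes. From Ntab24g014040-1.1 to Ntab24g014150-1.1 no nic1 nic2 library exceeds 12 counts, while the gene model at either end (Ntab24g014030-1.1 and Ntab24g014160-1.1) has at least 89 counts in every nic1 nic2 library.

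Another 11 called gene models were nearly absent from nic1 nic2, in 8 ID groups, being under 0.5 CPM in each library with a fitted fall of more than 16-fold. Their summed level was 0.295 ± 0.136 CPM in nic1 nic2 (SD, n = 3) and 16.9 ± 2.98 CPM in K326 (n = 4). Of the 11, 5 stayed called whichever 1 of the nic1 nic2 and K326 libraries was left out, and 4 in all 25 alternatives. Ntab07g012920-1.1 had 0 counts in nic1 nic2 and 4.12, 4.10, 2.51 and 2.62 CPM in K326, at least 38.5-fold lower. Ntab07g012960-1.1, also of ID group 7, had 0 counts against 3.00, 2.61, 1.83 and 2.09 CPM, at least 27.5-fold lower. Ntab16g016700-1.1, chosen after its values were seen, had 0 counts against 1.45, 1.41, 1.52 and 1.41 CPM, at least 16.7-fold lower.

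These 11 were not alike in the nic1 nic2 myc2a line. Ntab07g012920-1.1, Ntab07g012960-1.1, Ntab16g016700-1.1 and the pair Ntab19g030530-1.1 and Ntab19g030590-1.1 were also under 0.5 CPM in every nic1 nic2 myc2a library. Ntab03g028980-1.1, Ntab05g016150-1.1, Ntab10g023230-1.1 and Ntab23g011890-1.1 were called lower in nic1 nic2 than in nic1 nic2 myc2a. Of these, Ntab05g016150-1.1 had 3 counts in all of nic1 nic2 and 1.53, 1.41, 1.07 and 1.94 CPM in K326. The other members, Ntab05g023980-1.1 and Ntab24g009480-1.1, were at 0.161 ± 0.088 and 0.0101 ± 0.0175 CPM in nic1 nic2 (SD, n = 3) and at 2.77 ± 2.61 and 0.543 ± 0.370 CPM in nic1 nic2 myc2a (n = 4), which did not pass the test (edgeR adjusted p = 0.0608 and 0.0804).

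Abundant transcripts were among the falls. A mean over 100 CPM in K326 was found for 26 of the 138 falls outside the stretch, in 17 ID groups, with a median log2 fold change of -3.45, and 17 of them fell more than 4-fold. Their summed level was 1790, 1922 and 1685 CPM in nic1 nic2 replicates 1 to 3, against 7561, 17747, 7199 and 5869 CPM in K326 replicates 1 to 4. All K326 libraries were above all nic1 nic2 libraries, which the choice of called falls with a high K326 mean largely fixed. K326 replicate 2, which was part of that mean, stood far above the other K326 libraries. K326 replicate 2 was the highest K326 library in 24 of the 26, and in 25.6% of all gene models tested outside the stretch. Without it, the median log2 ratio of the group means of the 26 was -2.84, against -3.43 with it. CPM is not divided by transcript length, so the order of gene models by CPM is an order of counts.

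Ntab10g002480-1.1 had the highest level in K326 among the falls, with 379, 384 and 323 CPM in nic1 nic2 and 897, 1793, 1010 and 818 CPM in K326 (log2 fold change -1.64 ± 0.25, edgeR adjusted p = 0.00234). Ntab06g021890-1.1 had 58.5, 81.7 and 77.6 CPM against 752, 1609, 750 and 581 CPM (-3.67 ± 0.34, edgeR adjusted p = 1.84e-05). Ntab12g001120-1.1 had 80.4, 60.6 and 35.5 CPM against 563, 2003, 572 and 378 CPM (-3.90 ± 0.52, edgeR adjusted p = 0.000844). In each, the groups did not overlap and K326 replicate 2 was the highest K326 library by a wide margin.

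Ntab04g010910-1.1 had 30.2, 50.5 and 44.5 CPM in nic1 nic2 and 612, 1573, 555 and 452 CPM in K326 (log2 fold change -4.26 ± 0.40, edgeR adjusted p = 2.27e-05). The calls of these 4 gene models held in all 25 alternatives, with log2 fold changes from -1.77 to -1.26 for Ntab10g002480-1.1, from -3.84 to -3.26 for Ntab06g021890-1.1, from -4.21 to -2.84 for Ntab12g001120-1.1 and from -4.45 to -3.69 for Ntab04g010910-1.1. Their levels in nic1 nic2 myc2a, 357 ± 68.3, 72.6 ± 17.6, 83.9 ± 12.5 and 41.4 ± 7.98 CPM (SD, n = 4), were not called different from nic1 nic2 (edgeR adjusted p of 0.983, 1, 0.658 and 0.993). In myc2a they were at 793 ± 120, 408 ± 83.3, 335 ± 108 and 305 ± 57.3 CPM (SD, n = 5), and nic1 nic2 was called lower than myc2a for all 4.

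Larger folds were found at somewhat lower levels in gene models chosen after their values were seen. Ntab08g023550-1.1 had 2.06, 5.41 and 5.52 CPM in nic1 nic2 and 277, 1113, 211 and 129 CPM in K326. Ntab21g008710-1.1 had 2.87, 5.83 and 5.78 CPM against 248, 863, 195 and 134 CPM, and Ntab05g006320-1.1 had 1.72, 4.52 and 4.29 CPM against 157, 647, 120 and 68.3 CPM. All 3 were lowest in nic1 nic2 replicate 1 and highest in K326 replicate 2, and the groups did not overlap.

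**Figure D4:**
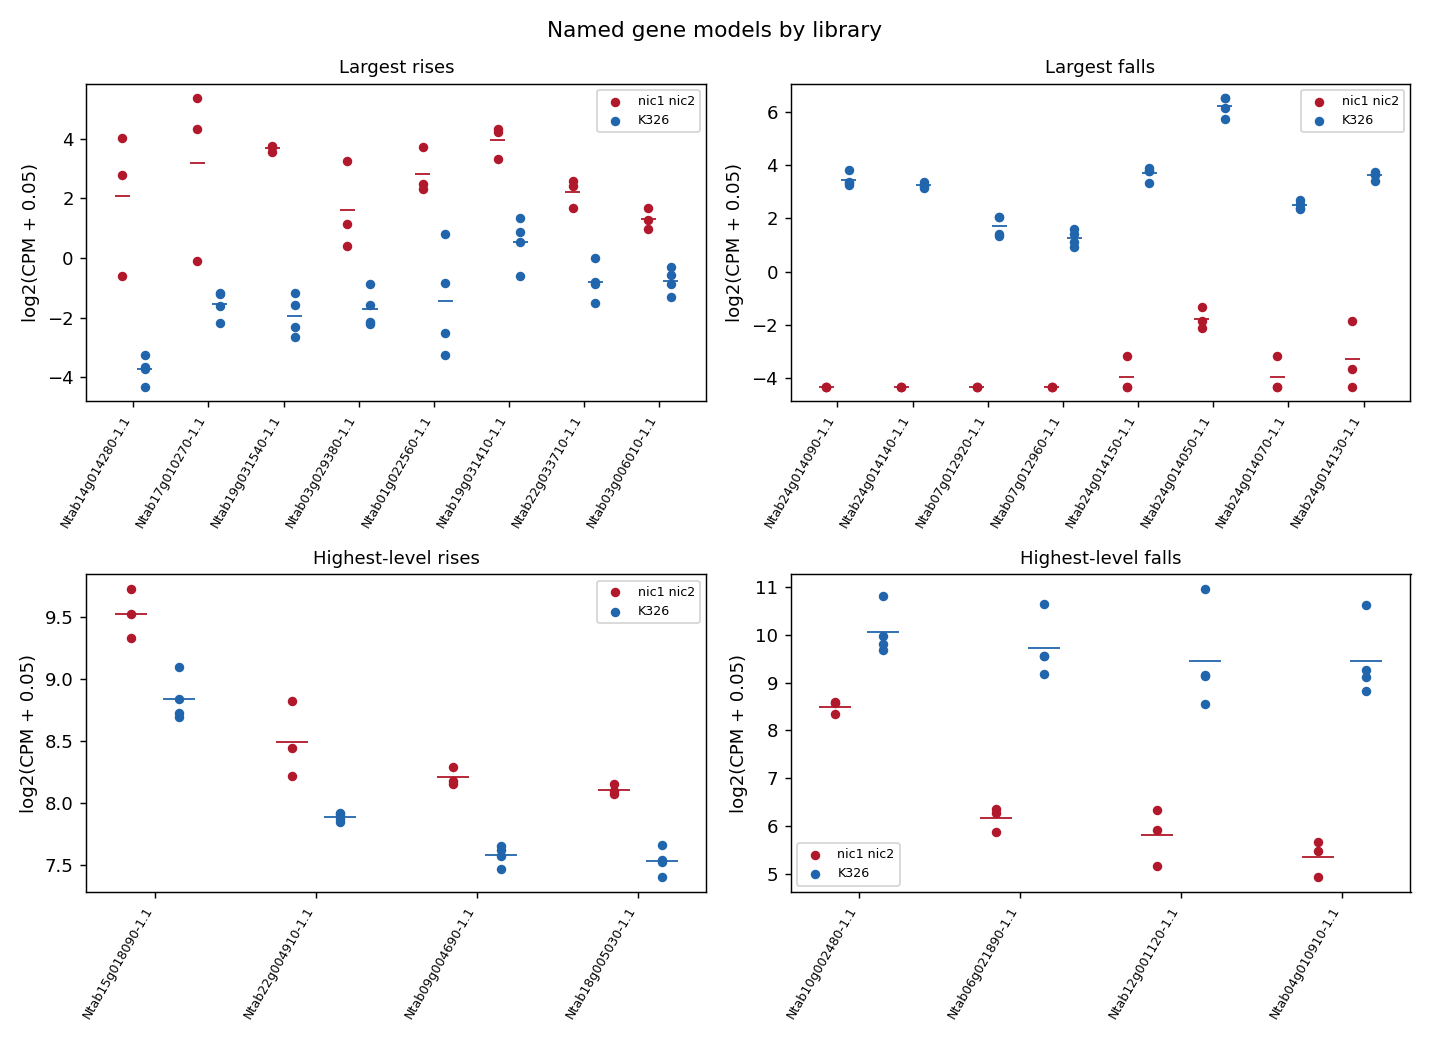
The level of each named gene model outside the ID group 18 stretch is shown for each library as log2(CPM + 0.05), with nic1 nic2 left of K326 and a bar at the mean of the log2 values. Among the largest rises the nic1 nic2 libraries spread widely for Ntab14g014280-1.1 and Ntab17g010270-1.1 and lie close together for Ntab19g031540-1.1, and among the highest-level falls 1 K326 library stands above the others.

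Some calls outside the stretch, rises and falls, stood close together in the table. With at most 100 serial numbers between called gene models, 53 of the 284 calls outside the stretch stood in 21 sets, of which 10 held falls only, 6 rises only and 5 both, and 8 of the 53 were the ID group 24 run. The share that calls placed without regard to position would give was not computed. In ID group 12 the neighbours Ntab12g015220-1.1, Ntab12g015230-1.1 and Ntab12g015240-1.1 were at 23.6 ± 3.79, 5.84 ± 1.94 and 4.70 ± 2.54 CPM in nic1 nic2 (SD, n = 3) and at 221 ± 147, 210 ± 150 and 108 ± 83.1 CPM in K326 (n = 4). In ID group 15, Ntab15g006100-1.1 was at 8.65 ± 5.99 CPM and Ntab15g006110-1.1 at 9.50 ± 6.79 CPM in nic1 nic2, against 219 ± 202 and 316 ± 268 CPM in K326. Whether neighbours are near-identical copies that share reads was not tested, so single values in such sets are uncertain. The remaining 93 falls, neither abundant nor nearly absent, had a median log2 fold change of -0.93. Of these, 5 stayed called whichever 1 of the nic1 nic2 and K326 libraries was left out, and 2 in all 25 alternatives. K326 replicate 2 was the highest K326 library in 52 of the 93.

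Rises were called for 146 gene models, or 0.341% of those tested outside the stretch, against 138 falls (0.323%). Their median log2 fold change was 0.91, with 58 over 2-fold and 10 over 4-fold. The summed level of the 146 was 6293, 6812 and 7636 CPM in nic1 nic2 replicates 1 to 3, against 3961, 3845, 4030 and 3834 CPM in K326. Replicate 3 was the highest of the 3 nic1 nic2 libraries in 61.0% of the rises, and in 37.8% of all gene models tested outside the stretch.

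Ntab19g031540-1.1 rose to nearly the same level in all nic1 nic2 libraries. It was at 13.3, 11.7 and 13.4 CPM in nic1 nic2 and at 0.109, 0.389, 0.282 and 0.151 CPM in K326, with a fitted log2 fold change of 5.69 ± 0.46 (edgeR adjusted p = 4e-06, called in all 25 alternatives). It stood beside falls: Ntab19g031560-1.1 and Ntab19g031570-1.1 were at 37.9 ± 4.82 and 49.4 ± 6.41 CPM in nic1 nic2 (SD, n = 3) and at 83.1 ± 16.6 and 108 ± 21.6 CPM in K326 (n = 4), and Ntab19g031580-1.1 was also called lower. Ntab19g031550-1.1, between them, was at 29.1 ± 5.60 and 28.5 ± 1.95 CPM. The falls of Ntab19g031560-1.1, Ntab19g031570-1.1 and Ntab19g031580-1.1 had nearly equal log2 fold changes of -1.13, -1.12 and -1.12. Among K326 libraries all 3 were highest in replicate 3 and lowest in replicate 2. Whether they share reads was not tested, so they need not be 3 separate falls. In nic1 nic2 myc2a, Ntab19g031540-1.1 was at 11.5 ± 2.77 CPM and was not called different (edgeR adjusted p = 0.891).

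Ntab14g014280-1.1 and Ntab17g010270-1.1 had the largest fitted rises among called gene models of at least 2 CPM in nic1 nic2, with a wide spread. The nic1 nic2 libraries held 0.605, 6.78 and 16.4 CPM of Ntab14g014280-1.1, against at most 0.0546 CPM in K326, and 0.877, 19.9 and 41.2 CPM of Ntab17g010270-1.1, against 0.169 to 0.389 CPM in K326. Both calls were lost with limma-voom, and also when nic1 nic2 replicate 3 and K326 replicate 2 were left out together. The lowest nic1 nic2 library was replicate 1 and the highest replicate 3 in both. Ntab03g029380-1.1 had 1.27, 2.18 and 9.41 CPM in nic1 nic2 and 0.164 to 0.490 CPM in K326 (log2 fold change 3.89 ± 0.65, edgeR adjusted p = 0.00631), and lost its call without nic1 nic2 replicate 3 (edgeR adjusted p = 0.0596). Ntab19g031410-1.1 had 9.86, 18.7 and 20.2 CPM against 2.51, 1.79, 1.41 and 0.604 CPM (3.36 ± 0.61, edgeR adjusted p = 0.0129), and its call was lost in 2 of 25 alternatives, both without nic1 nic2 replicate 3.

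The other large rises were less firm. Ntab01g022560-1.1 was at 4.87, 5.58 and 13.1 CPM in nic1 nic2 and 0.0546, 1.71, 0.508 and 0.126 CPM in K326, and lost its call in 14 of 25 alternatives (edgeR adjusted p = 0.0496, up to 0.213). Ntab22g033710-1.1, at 3.11, 5.91 and 5.32 CPM against 0.491, 0.518, 0.959 and 0.302 CPM, lost it in 9. Ntab03g006010-1.1, at 2.39, 1.90 and 3.15 CPM against 0.491, 0.763, 0.621 and 0.353 CPM, lost it in 8.

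Rises of abundant transcripts were small. The 16 rises with a mean over 100 CPM in nic1 nic2 had a median log2 fold change of 0.74. Ntab15g018090-1.1 had 642, 733 and 845 CPM in nic1 nic2 and 457, 424, 547 and 412 CPM in K326 (log2 fold change 0.69 ± 0.16, edgeR adjusted p = 0.046), and Ntab22g004910-1.1 had 298, 347 and 452 CPM against 240, 242, 230 and 234 CPM (0.63 ± 0.13, edgeR adjusted p = 0.0325). Ntab09g004690-1.1 had 313, 288 and 285 CPM against 196, 177, 190 and 201 CPM (0.63 ± 0.14, edgeR adjusted p = 0.0422), and Ntab18g005030-1.1 had 268, 284 and 274 CPM against 184, 169, 186 and 202 CPM (0.57 ± 0.13, edgeR adjusted p = 0.0445). Groups did not overlap in these 4, but their calls were lost in 14, 9, 15 and 15 of 25 alternatives.

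Besides Ntab19g031540-1.1, 3 rises were called in all 25 alternatives and are named here after their values were seen. Ntab13g002760-1.1 was at 28.4, 35.6 and 39.5 CPM in nic1 nic2 and 14.5, 12.0, 11.6 and 12.2 CPM in K326 (log2 fold change 1.46 ± 0.19, edgeR adjusted p = 0.00051). Ntab14g002680-1.1 was at 166, 205 and 182 CPM against 94.6, 87.9, 88.4 and 84.3 CPM (1.05 ± 0.16, edgeR adjusted p = 0.00319). Ntab20g021370-1.1 was at 14.5, 16.4 and 8.84 CPM against 5.49, 4.22, 3.13 and 3.83 CPM (1.67 ± 0.23, edgeR adjusted p = 0.00085).

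Calls outside the stretch were found in all 24 numbered ID groups, at 0.288% (ID group 11) to 1.52% (ID group 24) of the gene models tested. ID group 24 had 6 higher and 16 lower, with 8 of the lower ones in the run described above, ID group 5 had 2 and 12, and ID group 7 had 1 and 10. More rises than falls were called in ID group 23 (10 higher and 4 lower), ID group 1 (6 and 1), ID group 11 (4 and 1) and the rest of ID group 18 (4 and 1). The same direction was seen in ID groups 2, 3, 4, 8, 12, 13, 14, 17, 20, 21 and 22. ID groups 0, 6, 9, 10, 15, 16 and 19 had more falls than rises. These differences between ID groups were not tested. The share called grew with the level, from 0.178% below 1 CPM over all libraries to 1.76% above 100 CPM, where the calls were 10 rises and 17 falls.

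Where nic1 nic2 differed from K326 outside the stretch, it differed from nic1 nic2 myc2a as well for 26 of 284 gene models (9.15%), all in the same direction, with 8 higher and 18 lower, and 8 of the lower ones in the ID group 24 run. In that test 0.0982% of all gene models outside the stretch were called higher and 0.0819% lower. Both comparisons share the nic1 nic2 libraries, and the lines may differ at other loci. Among the rises, Ntab13g002760-1.1 was at 34.5 ± 5.67 CPM in nic1 nic2 (SD, n = 3) and 16.8 ± 3.27 CPM in nic1 nic2 myc2a (n = 4; edgeR adjusted p = 0.0123), and Ntab22g004910-1.1 at 366 ± 78.6 and 221 ± 20.9 CPM (edgeR adjusted p = 0.0153). For Ntab14g014280-1.1 and Ntab17g010270-1.1, at 0.529 ± 0.535 and 1.64 ± 1.51 CPM in nic1 nic2 myc2a (SD, n = 4), the difference did not pass the test (edgeR adjusted p = 0.089 and 0.0818). Against myc2a, 48 of the 146 rises and 67 of the 138 falls were called in either direction. Of all gene models outside the stretch, 0.786% were called (0.479% higher and 0.306% lower). This comparison also shares the nic1 nic2 libraries, by which the rises and falls were chosen.

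The number of calls outside the stretch changed with the libraries that were fitted. How much of a loss came from having fewer libraries was not tested. Without nic1 nic2 replicate 3 there were 31 rises and 46 falls outside it, without K326 replicate 2 43 and 53, and without both libraries 11 and 38. Without K326 replicates 1, 3 or 4 or nic1 nic2 replicate 2 there were 37, 54, 32 and 50 rises, and 73, 86, 69 and 64 falls. Without nic1 nic2 replicate 1 there were 223 rises and 345 falls, without myc2a replicate 4 95 and 89, and without myc2a replicate 5 295 and 330. In the stretch, leaving out any 1 of the 7 libraries left 82 to 101 calls, and leaving out K326 replicate 2 with nic1 nic2 replicate 3 left 70. Called in each of these 7 fits with 1 library left out were 68 of the 111 calls in the stretch, 35 of the 138 falls and 11 of the 146 rises outside it. Of these 35 falls, 17 had a mean over 100 CPM in K326 and 8 were in the ID group 24 run.

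**Figure D5:**
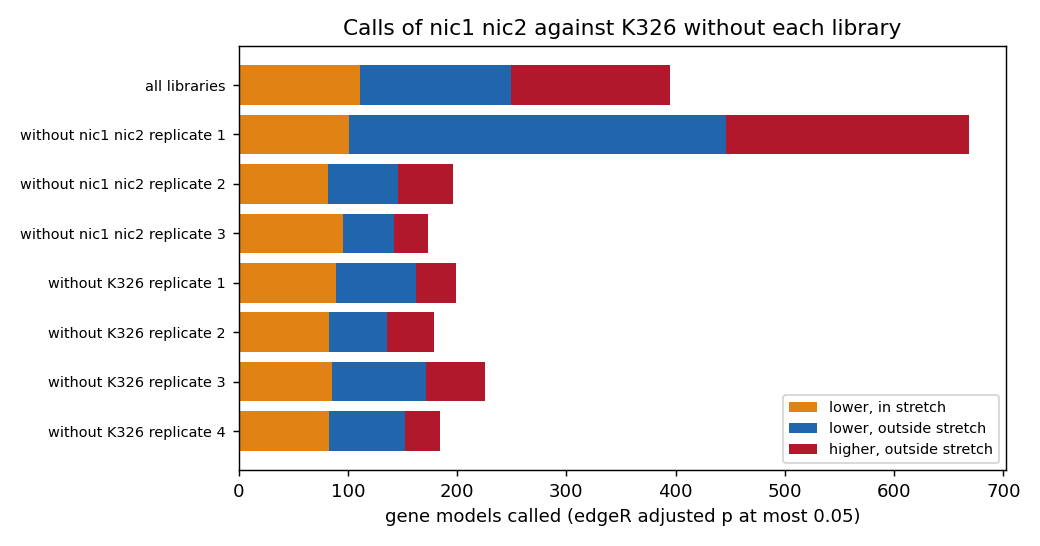
Bars give the number of gene models called between nic1 nic2 and K326 at an edgeR adjusted p of at most 0.05, with all libraries (top) and without each nic1 nic2 or K326 library, split into falls of the ID group 18 stretch, falls elsewhere and rises elsewhere. The stretch keeps 82 to 101 calls while the rises elsewhere vary from 31 to 223.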

How the data were processed

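Root RNA was sequenced in 16 libraries of 4 genotypes, with libraries from a strand-marking kit, per the labels' protocols. Per the submitters' processing notes, the tools were FastQC, HISAT2 2.1.0, SAMtools and bedtools. Genome build, annotation and counting settings are not given in the sources used here. Raw counts were deposited by the authors in 1 table with a row per gene model and a column per library, with 0 unused columns. The nic1 nic2 myc2a columns swap the letters of the titles, and letters and number together matched them. Between 59.7 and 65.6% of counts from 1 to under 200 were even, so mates of a pair may have been counted separately.

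Counts were filtered with filterByExpr, scaled by TMM and tested with edgeR 4.0.16 (R 4.3.3; 1 mean per genotype, 12 residual degrees of freedom, Benjamini-Hochberg over all gene models tested, threshold 0.05). CPM values use TMM-scaled totals. DESeq2 1.42.0, limma 3.58.1 and other scalings, filters and samples were alternatives. Named gene models had a called difference, a mean of 2 CPM or more in the group where it was higher, and libraries of both groups apart: outside the stretch the 8 largest rises and falls and the 4 of highest CPM in each direction, and inside it the 3 largest and the 3 of highest CPM among falls. The stretch, the gene models and the tests were chosen with earlier results of these data known. The fit was tested on simulated data.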

Additional observations from a re-analysis of the deposited data

Results flagged for a closer look

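Of 104 sets of 4 or 5 library values checked for a value far from the rest of its group, 8 were marked. Chance marks about 1 in 20 of separate sets. The sets here share libraries, and some hold gene models chosen for a high level in K326, so that rate is only a rough guide. Among K326 libraries, replicate 2 was far above the others in total counts (71836276, the next 40858135), in the summed level of the 138 falls outside the stretch (21428 CPM, the next 10556), in Ntab06g021890-1.1 (1609 CPM, the next 752), in Ntab12g001120-1.1 (2003 CPM, the next 572) and in Ntab04g010910-1.1 (1573 CPM, the next 612). Its counts in these gene models are scaled to its total, and the part of depth in these levels was not tested. Among myc2a libraries, replicate 5 was far above the others in Ntab19g031410-1.1 (3.73 CPM, the next 1.04) and in Ntab24g014140-1.1 (14.9 CPM, the next 9.72). In nic1 nic2 myc2a, replicate 1 was the only library with counts in Ntab07g012960-1.1 (0.0584 CPM).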

How the results depend on the processing

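The calls of nic1 nic2 against K326 moved with the tool and the libraries. DESeq2 called 2006 (894 higher and 1112 lower, 966 of the lower ones outside the stretch), and its counts were 649 for nic1 nic2 against nic1 nic2 myc2a and 1715 against myc2a, where limma-voom with quality weights gave 1167. With library size as the only scaling 269 were higher and 204 lower, against 146 and 249 with TMM, and the median log2 fold change of all gene models was 0.0855. With only the 7 libraries of both genotypes, 279 gene models were called, 70 of them in the stretch. Among the 395 calls of the fit to all 16 libraries, 180 (45.6%) were called in that smaller fit too. Correlations of deviations between libraries of like number were -0.07, 0.16 and -0.04 for numbers 1, 2 and 3. Between unlike numbers they ran from -0.09 to 0.12. So few values cannot tell whether the numbers pair the libraries. With the number as a replicate block the rises were 67 and the falls 205. Without K326 replicate 2 and nic1 nic2 replicate 3 the counts were 119 in all, 11 higher, 108 lower, 70 in the stretch, 38 lower outside it and 195 against myc2a. Leaving out single libraries of any genotype, the counts ranged from 173 to 746 in all, from 31 to 295 for rises, from 136 to 451 for falls, from 82 to 121 in the stretch, from 46 to 345 for falls outside it, from 126 to 291 against nic1 nic2 myc2a and from 215 to 1371 against myc2a. The median level of the stretch was 55.0% of K326, 51.2% for gene models of at least 10 CPM in K326 and 57.7% with library size only. Of the named gene models none changed direction in any alternative, and calls were lost in 120 of 750 combinations. Below 1 CPM over all libraries, 10 of 5625 gene models outside the stretch and 0 of 36 in it were called.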
